A study of Rattus norvegicus with 26 samples.

Results

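The genes of inhibitory signalling by γ-aminobutyric acid (GABA) and of the interneurons that release it were followed in the dentate gyrus (DG) of the rat hippocampus. A list of 33 genes was chosen by name, with no measured value in the rule but with earlier results of these data known: 10 subunits of the GABA-A receptor, 2 subunits of the GABA-B receptor, 5 genes for making, moving and breaking down GABA, 2 genes of the postsynaptic scaffold, 10 genes whose products mark interneurons and 4 transcription factors of interneurons. Of these, 32 had values and all 32 passed a mean of 5 normalized counts, among 15595 genes that did so and 17910 gene IDs in all. Cort was not analysed here.

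Poly(A) RNA was sequenced from the DG of 1 hemisphere in each of 26 male F344 rats, with 1 library per rat. Their labelled age of 6 months is the age at which treatment started, so they were older when the tissue was taken. The Veh group (n = 10) received the vehicle by gavage, and its rats belonged to another ongoing study of senolytic treatment in brain aging. The Dox group (n = 8) was injected with doxorubicin, an anthracycline used against cancer, in weekly doses of 2 mg/kg over 4 weeks. The Dox + ABT group (n = 8) received the same doxorubicin and, by gavage, ABT-263, a senolytic that inhibits proteins of the Bcl-2 family, at 12 mg/kg in courses of 5 days. No group received ABT-263 without doxorubicin, so its effect alone cannot be told apart from its effect on doxorubicin-treated rats. The values are normalized counts, that is, estimated reads per gene divided by a scaling factor of the library. Levels are given on this scale and are compared between groups for 1 gene at a time, never between genes, because they are not corrected for transcript length.

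GABA is the main inhibitory transmitter of the adult brain. It opens chloride channels built from GABA-A receptor subunits and, more slowly, acts through the GABA-B receptor, which couples to G proteins. In the DG, granule cells fire sparsely under the control of local interneurons, among them basket cells that carry parvalbumin or cholecystokinin and hilar cells that carry somatostatin, and the δ subunit of the GABA-A receptor mediates a tonic inhibition of granule cells. The RNA came from whole tissue, so fewer cells of a type and less RNA per cell cannot be told apart in any result here. Markers of granule cells were present in every rat: their summed level (Prox1, C1ql2, Dsp, Rfx3 and Calb1) ran from 8683 to 13689 normalized counts, with medians of 12324 for Veh, 10782 for Dox and 10266 for Dox + ABT rats. Of these 5 markers C1ql2 was called lower in Dox + ABT than in Veh (-0.46, limma p = 0.000697), also with the kind of library described below as a covariate (p = 0.00812). The others were not called in that comparison, and 2 of the 5 were higher in Dox + ABT. None was called between Dox and Veh, with 0 at p under 0.05.

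The libraries also differed within groups. Deviations from the group means had a first principal component with 28.4% of their variance, which split the libraries at its widest gap into 16 of a first kind (4 from Veh, 5 from Dox and 7 from Dox + ABT) and 10 of a second kind (6 from Veh, 3 from Dox and 1 from Dox + ABT). The share of all values that went to ribosomal protein genes was 0.852% ± 0.123 in the 16 and 1.42% ± 0.195 in the 10 (SD). The kinds are therefore spread unevenly over the groups, and the called results below are also given with the kind taken into account. The kinds were found from the values themselves, so differences between them are a description. Markers of field CA1 (Wfs1, Fibcd1 and Pou3f1), a neighbour of the DG, summed to between 1588 and 19215 normalized counts, and their median was 7038 for Veh rats, 5579 for Dox rats and 3319 for Dox + ABT rats.

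The promoters of 27 of the 33 genes were found in the RefSeq table for the assembly GRCr8. Those of Gabrb1, Gad1 and Gad2 are shown because Gabrb1 had the largest difference between groups and Gad1 and Gad2, which encode enzymes for the same reaction, differed together. Each line is the 250 bases before the start of the gene, 5′ to 3′ on the strand of the gene: Gabrb1 at chr14:36902894-36903143 on the minus strand, Gad1 at chr3:75777202-75777451 on the plus strand and Gad2 at chr17:89671468-89671717 on the plus strand. Capitals mark matches to 3 motifs searched on both strands, the core of the NRF1 site (GCGCATGC), the GC box (GGGCGG) and the TATA box (TATAAA).
Gabrb1: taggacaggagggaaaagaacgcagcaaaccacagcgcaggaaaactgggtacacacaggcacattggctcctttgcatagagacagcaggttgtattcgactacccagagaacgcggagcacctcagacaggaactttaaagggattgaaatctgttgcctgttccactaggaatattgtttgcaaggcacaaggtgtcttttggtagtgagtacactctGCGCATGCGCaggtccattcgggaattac
Gad1: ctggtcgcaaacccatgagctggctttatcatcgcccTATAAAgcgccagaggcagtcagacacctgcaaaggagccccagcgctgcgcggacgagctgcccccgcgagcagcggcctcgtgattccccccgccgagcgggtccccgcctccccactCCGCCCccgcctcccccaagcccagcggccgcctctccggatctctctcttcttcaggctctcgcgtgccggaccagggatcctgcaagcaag
Gad2: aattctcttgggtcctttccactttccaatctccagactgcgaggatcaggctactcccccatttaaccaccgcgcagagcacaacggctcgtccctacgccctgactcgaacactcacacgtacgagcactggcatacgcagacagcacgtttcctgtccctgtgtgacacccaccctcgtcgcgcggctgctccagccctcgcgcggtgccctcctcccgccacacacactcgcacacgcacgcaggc

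The Gabrb1 promoter held a pair of overlapping NRF1 cores, with first bases at -29 and -27 from the start, and Gabrb2 was the only other of the 27 with one in its promoter. Of all 33469 promoters in the table, 2.20% held this core. The Gad1 promoter held a TATA box at -213 and a GC box at -93. A TATA box stood in 12.9% of all promoters and in 3 of the 27 (Gabra3, Gad1 and Vip), and a GC box in 30.5% of all promoters and in 17 of the 27. The Gad2 promoter held none of the 3 motifs. Guanine and cytosine made up 49.2% of the Gabrb1 promoter, 68.4% of the Gad1 promoter and 62% of the Gad2 promoter.

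To ask whether doxorubicin changed these genes, the Dox group was compared with Veh by limma on log2(normalized count + 1), where a gene was called at an unadjusted p under 0.01, the threshold of the study. Penk, which encodes the precursor of enkephalin, fell in Dox by 0.57 on the log2 scale, and it was the only one of the 32 genes called, against 2.87% of all tested genes called in either direction and 1.85% called lower. At p under 0.05 there were 2 genes, Penk and the GABA-B subunit Gabbr1. The median log2 fold change of the 32 genes was -0.03 (14 higher and 18 lower), beside 0.00498 over all tested genes. No adjusted p of the 32 was under 0.05, and the smallest was 0.152.

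The comparison of Dox + ABT with Veh called 6 of the 32 genes, 18.75% of them against 7.84% of all tested genes. Lower were 4 genes: Gabrb1 by 0.85, Penk by 0.42, Gabrd by 0.34 and Gabbr1 by 0.32 on the log2 scale, where 3.95% of all tested genes were called lower. Higher were 2 genes, Gad1 by 0.25 and Gad2 by 0.27 on the log2 scale, where 3.89% of all tested genes were called higher. The median log2 fold change of the 32 genes was 0.02 (18 higher and 14 lower) and that of all tested genes -0.000864. Dox against Dox + ABT called 1 of the 32, Gabrb1, and had a median of -0.11 over the 32 (8 higher and 24 lower in Dox), beside -0.00139 over all tested genes. The adjusted p-values of the 6 ran from 0.113 to 0.123. Without Veh rat 1 or without Dox + ABT rat 6, limma called 0 of the 32, with 6 and 7 at p under 0.05, and the calls over all tested genes fell from 1222 to 760 and 696, although each of the 6 differences kept its direction when any rat was left out.

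Of these 6 genes, 5 also differed between the kinds of library at p under 0.01, and Gabrd was higher in the second by 0.24 on the log2 scale (limma p = 0.0145). With the kind as a limma covariate, 0 of the 32 genes were called between Dox + ABT and Veh (1.37% of all tested genes were), and 3 had a p under 0.05. Penk remained called between Dox and Veh in that fit, where 2.7% of all tested genes were. Between the kinds themselves, within groups, 11 of the 32 genes were called, 6 higher in the second kind (Gabra5, Gabrb1, Gabbr1, Pvalb, Cck and Penk) and 5 lower (Gad1, Gad2, Abat, Reln and Dlx5), against 35.1% of all tested genes (18.4% higher and 16.8% lower). Since the Dox + ABT group held 1 rat of the second kind and Veh held 6, the kinds are unbalanced in that comparison.

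**Figure D1:**
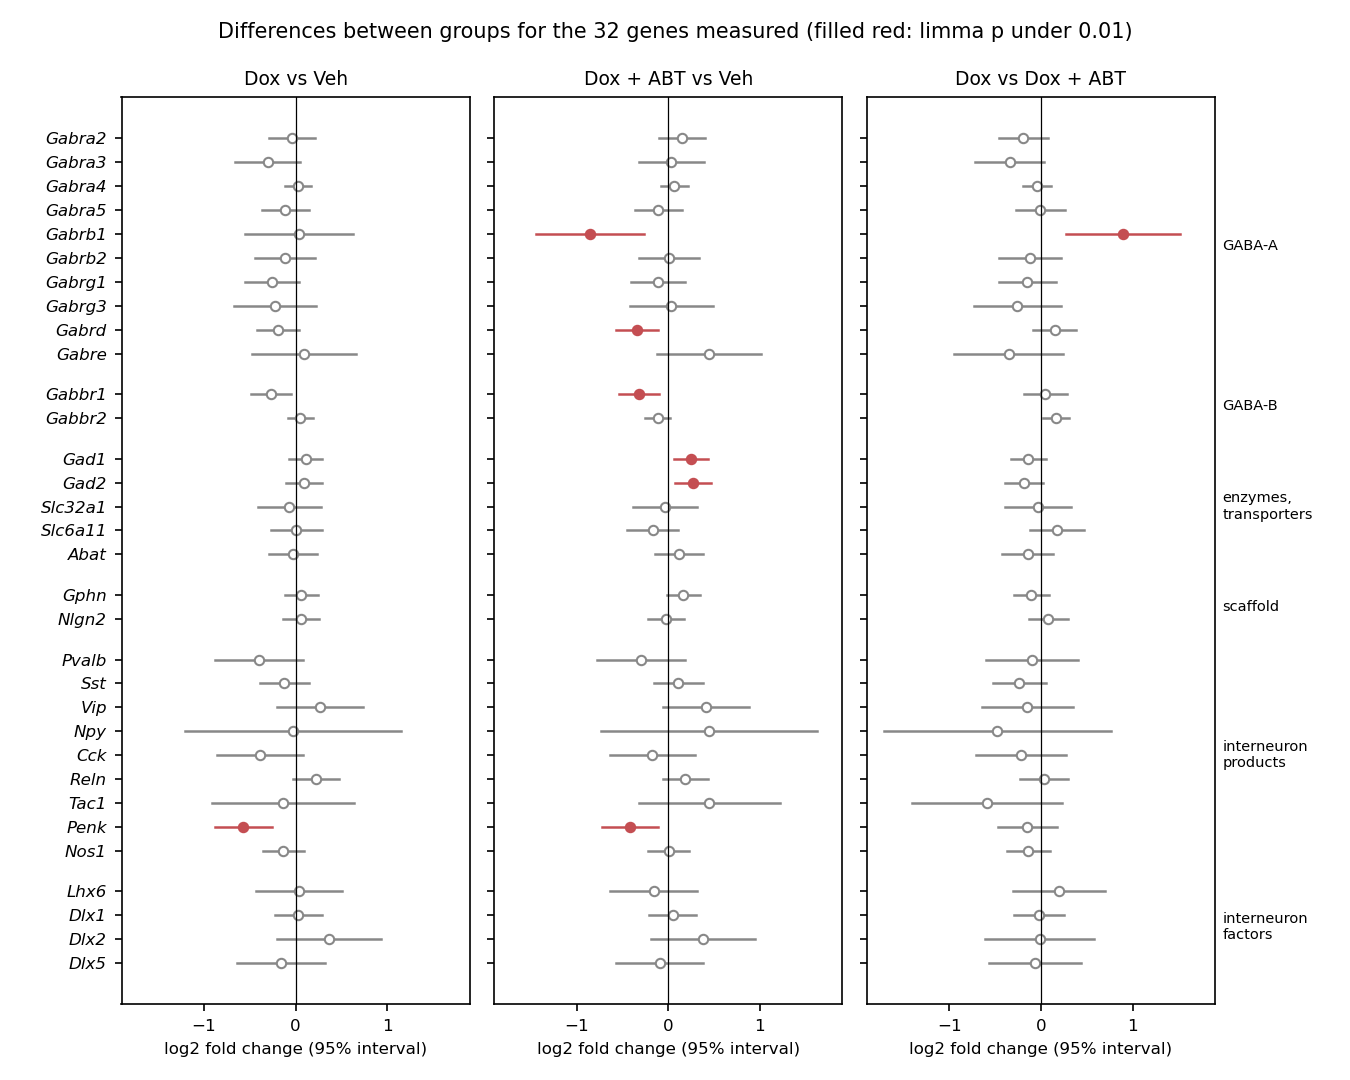
Log2 fold changes of the 32 genes in the 3 comparisons, with 95% intervals from the limma fit without covariate, grouped by role; filled red points have a p under 0.01. Of the 32 genes, 1 is red between Dox and Veh (Penk), 6 are red between Dox + ABT and Veh, and 1, Gabrb1, in the last panel, and the widest intervals are those of Npy.

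**Figure D2:**
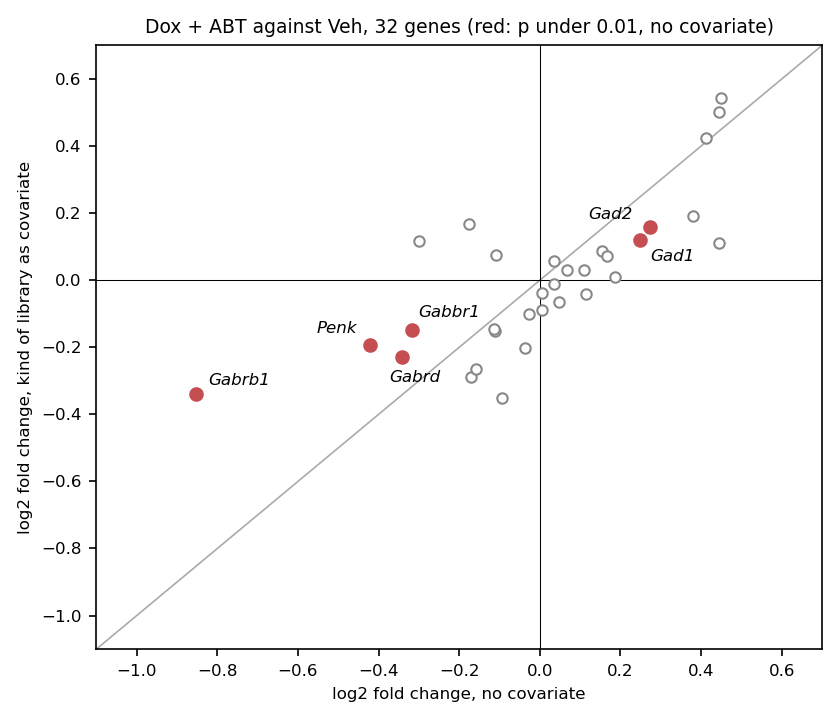
Log2 fold change of Dox + ABT against Veh for each of the 32 genes, without a covariate on the horizontal axis and with the library kind as a covariate on the vertical axis; the grey line marks equal values and red points had a p under 0.01 without the covariate. The 6 red points keep their side of 0 and lie nearer to it on the vertical axis, as Gabrb1, which moves from -0.85 to -0.34.

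The subunits of the GABA-A receptor set its place on the cell and its response to drugs. Gabrb1 encodes the β1 subunit. Its levels ran from 296 to 960 normalized counts in Veh (median 613), from 289 to 2264 in Dox (median 487) and from 247 to 408 in Dox + ABT (median 325). All 8 Dox + ABT rats were below the Veh median and 3 were below every Veh rat, and 6 of 8 Dox rats were above every Dox + ABT rat. Gabrb1 was lower in Dox + ABT than in Veh (log2 fold change -0.85 ± 0.29 SE, limma p = 0.00591, adjusted p = 0.116). It was also the only one of the 32 genes called between Dox and Dox + ABT, higher in Dox (0.89 ± 0.30 SE, p = 0.00622, adjusted p = 0.225), where 4.03% of all tested genes were called and 2.32% were called higher.

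Of the 32 genes, Gabrb1 differed most between the kinds of library, higher by 1.09 on the log2 scale in the second. In rats of the first kind its levels were 390 ± 86.7 (SD, n = 4 Veh rats), 418 ± 88.8 (SD, n = 5 Dox rats) and 319 ± 56.9 (SD, n = 7 Dox + ABT rats). Limma on these rats alone gave -0.28 for Dox + ABT against Veh (p = 0.107) and 0.38 for Dox against Dox + ABT (p = 0.0242). With the kind as a covariate, the difference from Veh was -0.34 (p = 0.102), while Dox against Dox + ABT stayed called at 0.62 (p = 0.00386, adjusted p = 0.159), against 4.76% of all tested genes. Dox rat 5, of the second kind, had the highest level, and without it the difference between Dox and Dox + ABT was 0.62 with a p of 0.0176. Leaving out Dox rat 7 or 14, or Dox + ABT rat 2, 5 or 6, also ended that call.

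Gabrd encodes the δ subunit, which forms receptors outside the synapse. Its levels ran from 950 to 1689 normalized counts in Veh (median 1325), from 885 to 1356 in Dox (median 1215) and from 922 to 1228 in Dox + ABT (median 1041). All 8 Dox + ABT rats and 7 of 8 Dox rats were below the Veh median. The difference from Veh was -0.34 ± 0.11 SE in Dox + ABT (limma p = 0.00435, adjusted p = 0.113) and -0.19 ± 0.11 SE in Dox (p = 0.0913). In the first kind the levels were 1105 ± 105 (SD, n = 4 Veh rats), 1170 ± 116 (SD, n = 5 Dox rats) and 1036 ± 130 (SD, n = 7 Dox + ABT rats). The limma difference of Dox + ABT from Veh there was -0.10 (p = 0.347). The granule cell marker C1ql2 was lower in Dox + ABT as well, although 2 of the 5 granule cell markers were higher there than in Veh. The part of C1ql2 in the Gabrd difference was not tested.

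Gabrg1, the γ1 subunit, had the smallest p of the 10 subunits between Dox and Veh (-0.26 ± 0.14 SE, limma p = 0.0793). Its levels ran from 132 to 292 normalized counts in Veh (median 221), from 136 to 203 in Dox (median 178) and from 166 to 244 in Dox + ABT (median 188), and all 8 Dox rats lay below the Veh median. In the first kind of library, 3 of the 32 genes were called between Dox and Veh, where 4.76% of all tested genes were: Gabrg1 (-0.54, p = 0.00131), the β2 subunit Gabrb2 (-0.47, p = 0.00371) and Penk. The same 3 were those whose 5 Dox and 4 Veh rats of that kind did not overlap, against 5.49% of all tested genes, and all 3 were lower in Dox. Gabrb2 in that kind ran from 195 to 275 normalized counts in Dox and from 313 to 364 in Veh, whereas over all rats its difference was -0.11 (95% interval -0.44 to 0.21). Dox rats of the second kind had 220 to 370 normalized counts of Gabrb2, and Veh rats of that kind 145 to 385. Gabrg1 there ran from 175 to 199 in Dox and from 132 to 292 in Veh, a change of -0.02 on the log2 scale.

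The other 6 GABA-A subunits were not called in any of the 3 comparisons in the fit of all rats with no covariate, block or weights. Gabra2 was called between Dox and Dox + ABT with the replicate number as a block. It was also called between Dox + ABT and Veh with library weights. Gabra2, Gabra3, Gabra4 and Gabra5 encode α subunits, which shape the benzodiazepine response, Gabrg3 encodes the γ3 subunit and Gabre the ε subunit. Gabra4, the α partner of δ on granule cells, had the smallest SD relative to its mean of the 10 subunits in each group, with 1973 ± 130 normalized counts (SD, n = 10 Veh rats), 2015 ± 224 (SD, n = 8 Dox rats) and 2074 ± 218 (SD, n = 8 Dox + ABT rats). The 95% interval of its log2 fold change was -0.12 to 0.17 between Dox and Veh and -0.08 to 0.21 between Dox + ABT and Veh. Gabra3 averaged 258 ± 56.6 normalized counts for Veh and 212 ± 63.1 for Dox (-0.30, p = 0.0914). Gabra5 had 1601 ± 306, 1494 ± 357 and 1477 ± 212 normalized counts in Veh, Dox and Dox + ABT, and was higher in the second kind of library by 0.39 on the log2 scale. Gabrg3 and Gabre were low, with means of 9.45 to 12.4 normalized counts over the groups, and rest on few reads.

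Gabra2 differed in opposite directions between the kinds of library. Its level in the first kind was 1204 ± 186 (SD, n = 4 Veh rats) and 933 ± 208 (SD, n = 5 Dox rats), a change of -0.38, and in the second kind 885 ± 127 (SD, n = 6 Veh rats) and 1065 ± 73.6 (SD, n = 3 Dox rats), a change of 0.28. The difference between these changes was 0.66 on the log2 scale (limma interaction, p = 0.0073, adjusted p = 0.126). An interaction p under 0.01 was found for 7.16% of all tested genes. Over all rats Gabra2 averaged 1013 ± 218 normalized counts for Veh, 983 ± 176 for Dox and 1113 ± 150 for Dox + ABT.

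The GABA-B receptor is a pair of subunits: Gabbr1 binds GABA and Gabbr2 couples to the G protein. Gabbr1 ran from 18544 to 31237 normalized counts in Veh (median 25698), from 16663 to 27242 in Dox (median 20538) and from 18444 to 26476 in Dox + ABT (median 19813). Below the Veh median lay 7 of 8 Dox rats and 7 of 8 Dox + ABT rats. The difference from Veh was -0.27 ± 0.11 SE in Dox (limma p = 0.0183, adjusted p = 0.406) and -0.32 ± 0.11 SE in Dox + ABT (p = 0.00654, adjusted p = 0.116). Gabbr1 was higher in the second kind of library by 0.36, and with the kind as a covariate the differences were -0.19 (p = 0.0237) in Dox and -0.15 (p = 0.0941) in Dox + ABT.

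Gabbr2 was not called in any of the 3 comparisons in the fit of all rats with no covariate, block or weights. With library weights it was called between Dox and Dox + ABT. It ran from 7128 to 9348 normalized counts in Veh (median 8591), from 7656 to 9672 in Dox (median 9143) and from 7278 to 8549 in Dox + ABT (median 7895). Its log2 fold change was 0.05 in Dox against Veh (95% interval -0.09 to 0.19), -0.11 in Dox + ABT against Veh (-0.25 to 0.02) and 0.17 in Dox against Dox + ABT (limma p = 0.0279, adjusted p = 0.331), and 5 of 8 Dox rats were above every Dox + ABT rat. All 8 Dox + ABT rats were below the Veh median. With the kind as a covariate the difference of Dox + ABT from Veh was -0.14 (limma p = 0.0485), beside the -0.15 of Gabbr1. In the first kind of library the difference between Dox and Dox + ABT was 0.22 (limma p = 0.0078). The 5 Dox rats averaged 9160 ± 520 normalized counts there and the 7 Dox + ABT rats 7863 ± 442 (SD). Dox against Dox + ABT in that kind called 3 of the 32 genes (Gabbr2, Slc6a11 and Penk), against 8.21% of all tested genes.

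GABA is made from glutamate by the decarboxylases GAD67 and GAD65, encoded by Gad1 and Gad2. Gad1 ran from 1740 to 2607 normalized counts in Veh (median 2119), from 1992 to 2862 in Dox (median 2292) and from 2240 to 2903 in Dox + ABT (median 2535). All 8 Dox + ABT rats were above the Veh median and 4 were above every Veh rat. Its difference from Veh was 0.25 ± 0.09 SE in Dox + ABT (limma p = 0.00898, adjusted p = 0.123) and 0.11 ± 0.09 SE in Dox (p = 0.229).

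Gad2 was also higher in Dox + ABT than in Veh, with levels from 1393 to 2206 normalized counts in Veh (median 1708), from 1554 to 2126 in Dox (median 2026) and from 1803 to 2493 in Dox + ABT (median 2128). All 8 Dox + ABT rats were above the Veh median and 3 were above every Veh rat. The difference was 0.27 ± 0.10 SE in Dox + ABT (p = 0.00795, adjusted p = 0.12) and 0.09 ± 0.10 SE in Dox (p = 0.374). Both genes were lower in the second kind of library, Gad1 by 0.27 and Gad2 by 0.25 on the log2 scale, and both promoters are shown above.

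Within the first kind of library the groups were close for both enzymes. Gad1 there had 2484 ± 140 normalized counts (SD, n = 4 Veh rats), 2435 ± 325 (SD, n = 5 Dox rats) and 2591 ± 217 (SD, n = 7 Dox + ABT rats), and Gad2 had 2095 ± 149, 1978 ± 209 and 2145 ± 269. The differences between Dox + ABT and Veh were then 0.06 for Gad1 (limma p = 0.528) and 0.03 for Gad2 (p = 0.786). With the kind as a covariate over all rats they were 0.12 (p = 0.116) and 0.16 (p = 0.084). The level of the CA1 markers as the only covariate also ended both calls, at 0.24 for Gad1 (p = 0.0119) and 0.27 for Gad2 (p = 0.0103).

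Gad1 and Gad2 also varied together from rat to rat. Over 10 relations tested (5 pairs of genes in each kind of library, as deviations of log2 values from the group means), the pair had a Pearson r of 0.762 in the first kind (n = 16, permutation p = 0.0018, adjusted p = 0.018; Spearman rho 0.738, permutation p = 0.00601, adjusted p = 0.0301). Without the 2 rats farthest from the median of Gad1 the r was 0.805. In the second kind the r was 0.372 (n = 9, exact permutation p = 0.284; rho 0.183, exact permutation p = 0.65). These libraries share their scaling and tissue mix within a rat, whose part in the relation was not tested.

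Slc32a1 encodes the vesicular transporter that loads GABA into synaptic vesicles. Over all rats it had 1084 ± 186 normalized counts (SD, n = 10 Veh rats), 1079 ± 350 (SD, n = 8 Dox rats) and 1071 ± 253 (SD, n = 8 Dox + ABT rats). By kind the values split: in the first kind Veh had 1073 ± 117 (SD, n = 4) and Dox 1314 ± 133 (SD, n = 5), and in the second Veh had 1092 ± 233 (SD, n = 6) and Dox 686 ± 154 (SD, n = 3). The change in Dox was 0.29 in the first kind and -0.67 in the second, a difference of -0.96 on the log2 scale (limma interaction, p = 0.000213, adjusted p = 0.0796), and 3 of the 32 genes had an interaction p under 0.01, against 7.16% of all tested genes. In the second kind alone, where 3.57% of all tested genes were called, Slc32a1 was the only one of the 32 called between Dox and Veh (p = 0.0026). Slc32a1 and Gad1 were not correlated in either kind (r -0.0711, n = 16, permutation p = 0.786; r -0.126, n = 9, exact permutation p = 0.729; rho -0.138, permutation p = 0.637, and -0.25, exact permutation p = 0.55).

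Slc6a11 encodes the GABA transporter GAT3 of astrocytes and Abat the GABA transaminase. Neither was called in any of the 3 comparisons in the fit of all rats with no covariate, block or weights. With library weights Slc6a11 was called between Dox and Dox + ABT. Slc6a11 averaged 518 ± 91.7 normalized counts for Veh, 524 ± 107 for Dox and 463 ± 96.7 for Dox + ABT. In the first kind of library it averaged 574 ± 38.1 (SD, n = 4 Veh rats), 590 ± 27.7 (SD, n = 5 Dox rats) and 443 ± 85.5 (SD, n = 7 Dox + ABT rats). It was lower in Dox + ABT than in Veh there (-0.39, limma p = 0.00432) and than in Dox (p = 0.00111, adjusted p = 0.0542), and it was the only one of the 32 called against Veh there, where 1.1% of all tested genes were. The summed astrocyte markers ran from 39437 to 60762 normalized counts in Veh, from 33584 to 43142 in Dox and from 38074 to 55080 in Dox + ABT, and their part in the Slc6a11 difference was not tested. Abat had 1683 ± 391, 1639 ± 325 and 1793 ± 246 normalized counts in the 3 groups.

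Gphn encodes gephyrin, the scaffold under inhibitory synapses, and Nlgn2 encodes neuroligin-2, an adhesion protein of the same synapses. Gphn ran from 530 to 828 normalized counts in Veh (median 687), from 633 to 810 in Dox (median 721) and from 667 to 951 in Dox + ABT (median 753). Nlgn2 ran from 2695 to 4312 in Veh (median 3643), from 2743 to 4530 in Dox (median 3910) and from 3062 to 4052 in Dox + ABT (median 3577). The groups overlapped widely for both genes. The log2 fold change between Dox and Veh was 0.06 for Gphn (95% interval -0.12 to 0.24) and 0.05 for Nlgn2 (-0.14 to 0.25), and between Dox + ABT and Veh 0.17 (-0.01 to 0.35) and -0.03 (-0.23 to 0.17).

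**Figure D3:**
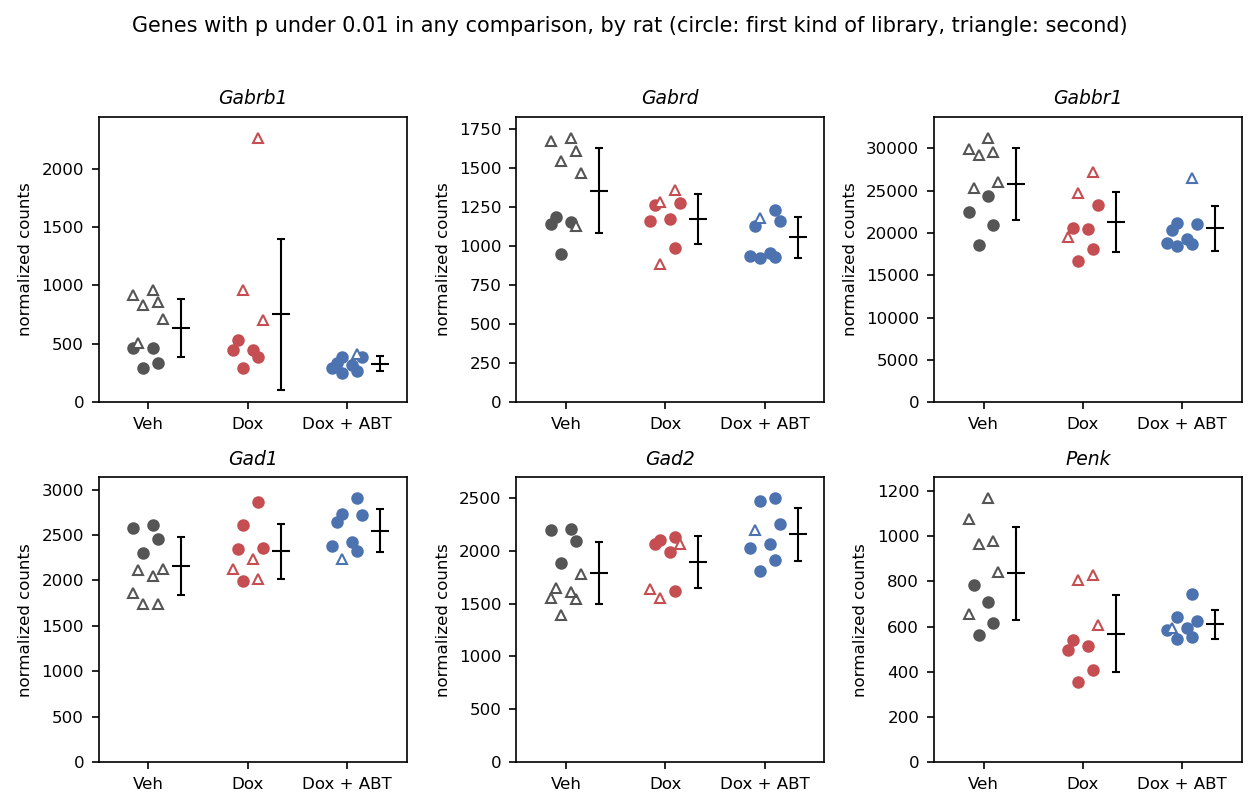
Normalized counts of the 6 genes with p under 0.01 in any comparison, 1 point per rat; circles are libraries of the first kind and triangles of the second, and the bar beside each group is the mean ± SD (n = 10, 8 and 8). Triangles stand above circles in Veh for Gabrb1, Gabbr1 and most rats for Gabrd and Penk, and below them for Gad1 and Gad2, and the Dox + ABT group has 1 triangle.

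Among the products that mark interneurons, Penk was the one called against Veh in the fit of all rats with no covariate, block or weights. Enkephalin is an opioid peptide that acts on interneurons and that granule cells and their perforant-path input also make. Penk ran from 565 to 1167 normalized counts in Veh (median 812), from 354 to 830 in Dox (median 527) and from 544 to 744 in Dox + ABT (median 594). Of the 8 Dox rats, 7 lay below the Veh median and 5 below every Veh rat, and all 8 Dox + ABT rats lay below the Veh median and 2 below every Veh rat. The difference from Veh was -0.57 ± 0.15 SE in Dox (limma p = 0.000706, adjusted p = 0.152) and -0.42 ± 0.15 SE in Dox + ABT (p = 0.00894, adjusted p = 0.123), while Dox against Dox + ABT gave -0.15 (95% interval -0.47 to 0.17). Some markers of other cell types were called lower in Dox than in Veh as well, where 1.85% of all tested genes were. Limma called 3 of 6 for astrocytes, 3 of 6 for microglia, 2 of 6 for oligodendrocytes and 2 of 5 for fibroblasts, all lower. With the kind as a covariate these lists had 3, 2, 1 and 2 called, in the same order. By direction alone, 2 of the 6 astrocyte and 1 of the 6 microglial markers were higher. None of the markers of granule, mossy or CA cells was called, and all 3 CA3 markers were higher. The summed microglial markers ran from 3186 to 5582 normalized counts in Veh and from 2881 to 4577 in Dox, those of fibroblasts from 189 to 370 and from 163 to 272, and those of oligodendrocytes from 42163 to 118625 and from 46145 to 70854. In Dox + ABT against Veh 1 of 6 astrocyte, 1 of 6 microglial and 1 of 5 granule cell markers were called, all lower. Of all tested genes 3.95% were called lower in that comparison. The part of these markers in the Penk differences was not tested.

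The lower Penk in Dox was present in both kinds of library. In the first kind Veh ran from 565 to 784 and Dox from 354 to 541 with no overlap, and in the second Veh ran from 657 to 1167 and Dox from 607 to 830. The log2 fold changes were -0.53 in the first kind (limma p = 0.000565) and -0.33 in the second (p = 0.0724), and the difference between them was 0.20 (interaction p = 0.394). With the kind as a covariate the fold change was -0.46 (p = 0.000432, adjusted p = 0.122), with the level of the CA1 markers as well it was -0.48 (p = 5.58e-05), and with any 1 rat left out it lay between -0.65 and -0.48, called in each of those fits. The kinds were split on within-group deviations of these same values, Penk among them. The p-values with the kind as a covariate are therefore not an independent check of the call. In Dox + ABT the first kind gave -0.12 (p = 0.329), and in that kind Dox was lower than Dox + ABT by 0.41 on the log2 scale (limma p = 0.00168, adjusted p = 0.0632), with 463 ± 78.5 normalized counts in 5 Dox rats against 613 ± 67.6 in 7 Dox + ABT rats (SD).

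Reln encodes reelin, the matrix protein made by interneurons of the outer layers and hilus. It ran from 773 to 1612 normalized counts in Veh (median 1253), from 996 to 1709 in Dox (median 1531) and from 1165 to 1657 in Dox + ABT (median 1364). Its difference from Veh was 0.22 ± 0.12 SE in Dox (limma p = 0.0761) and 0.19 ± 0.12 SE in Dox + ABT (p = 0.133). The 3 lowest Dox rats were those of the second kind of library, where Reln was lower by 0.37 on the log2 scale.

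Pvalb encodes parvalbumin, the calcium-binding protein of fast-spiking basket cells, and Cck encodes cholecystokinin, a peptide of another basket cell class that pyramidal cells also make. Pvalb had 419 ± 146 normalized counts (SD, n = 10 Veh rats), 319 ± 135 (SD, n = 8 Dox rats) and 334 ± 122 (SD, n = 8 Dox + ABT rats). Cck had 1182 ± 407, 894 ± 269 and 1052 ± 448. The differences between Dox and Veh were -0.40 for Pvalb (limma p = 0.0996) and -0.39 for Cck (p = 0.0975). Both genes were higher in the second kind, by 0.88 and 0.72 on the log2 scale, and with the kind as a covariate neither was called in any of the 3 comparisons. With the level of the CA1 markers as well, Cck was lower in Dox than in Dox + ABT by 0.36 on the log2 scale (limma p = 0.00637).

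Dox + ABT rat 4, the only rat of its group with a library of the second kind, had the highest Pvalb, Cck and Gabbr1 of that group. Its Pvalb was 610 normalized counts, with the other 7 rats between 222 and 372, and its Cck was 2051, with the others between 686 and 1256. The same rat had the highest summed CA1 markers of all 26 rats, at 19215 normalized counts. The part of CA1 tissue in these values was not tested.

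Sst encodes somatostatin and Npy neuropeptide Y, peptides that share many hilar interneurons. Sst averaged 1019 ± 162 normalized counts for Veh, 946 ± 198 for Dox and 1111 ± 241 for Dox + ABT, and the 95% interval of its log2 fold change was -0.39 to 0.15 between Dox and Veh. Npy ran from 2.63 to 378 normalized counts in Veh, from 44.5 to 298 in Dox and from 106 to 277 in Dox + ABT, and its interval between Dox and Veh, -1.21 to 1.14, holds changes of 2-fold in either direction. Sst and Npy went together in the second kind of library (Pearson r 0.637, n = 9, exact permutation p = 0.00556, adjusted p = 0.0278; rho 0.817, exact permutation p = 0.000231, adjusted p = 0.00231; r 0.702 without the 2 farthest rats). In the first kind the r was 0.377 (n = 16, permutation p = 0.136; rho 0.332, permutation p = 0.207).

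Vip encodes the vasoactive intestinal peptide of interneurons that target other interneurons, Tac1 the precursor of substance P, and Nos1 the neuronal nitric oxide synthase. Vip averaged 89.1 ± 32.3 normalized counts for Veh, 109 ± 48.1 for Dox and 116 ± 29.6 for Dox + ABT, and its difference in Dox + ABT was 0.41 (limma p = 0.0822). Tac1 was low, with 15.0 ± 8.47, 13.5 ± 7.25 and 22.3 ± 12 normalized counts, and Nos1 was even, with 826 ± 149, 753 ± 141 and 820 ± 85.2. None of these 3 was called in any comparison in the fit with no covariate or block, and with the level of the CA1 markers as the covariate Vip was higher in Dox + ABT than in Veh by 0.51 on the log2 scale (limma p = 0.00431). It was not called with the kind as the covariate (0.42, p = 0.1003) or with both (0.43, p = 0.0203).

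**Figure D4:**
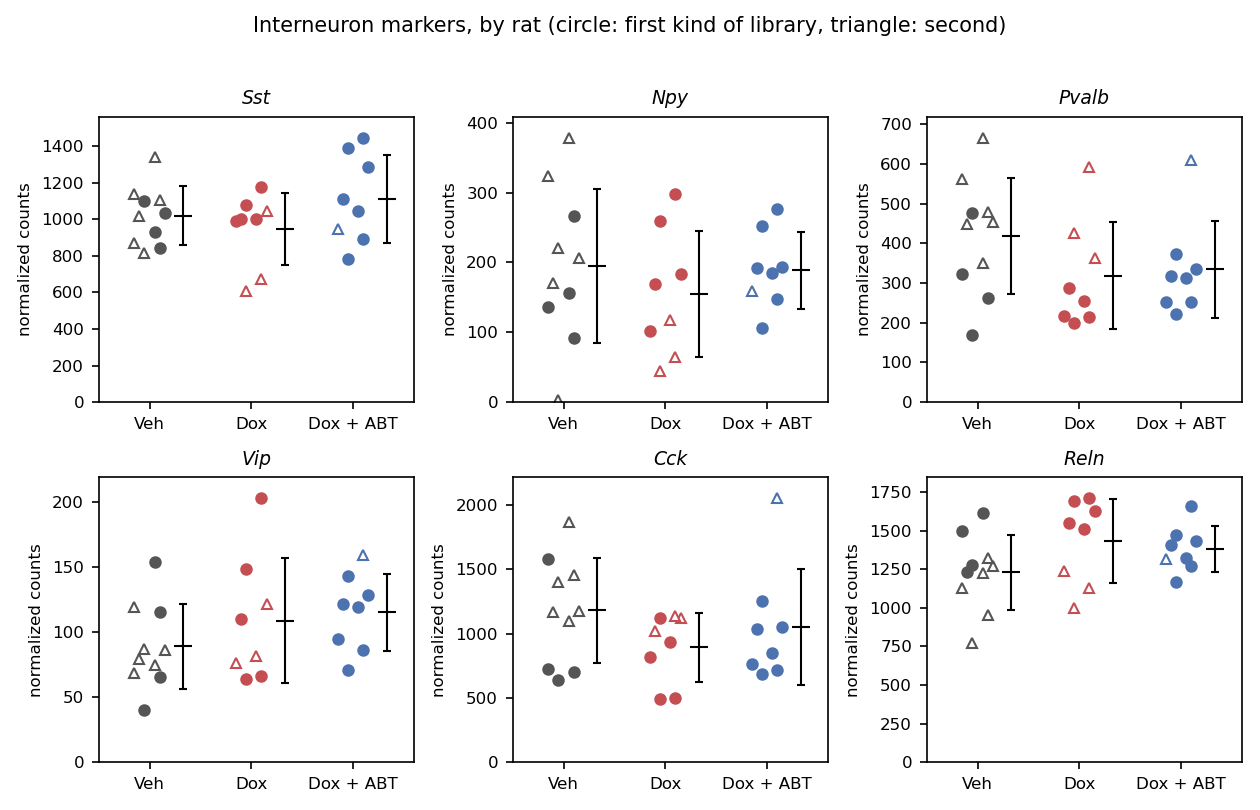
Normalized counts of 6 interneuron markers, 1 point per rat; circles are libraries of the first kind and triangles of the second, and bars are the mean ± SD (n = 10, 8 and 8). The groups overlap in all 6 panels, the triangles stand high for Pvalb and Cck, and 1 Veh rat has an Npy level of 2.63.

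The transcription factors Dlx1, Dlx2 and Dlx5 act in the precursors of forebrain interneurons and Lhx6 in those that come to carry parvalbumin or somatostatin. Dlx2 ran from 5.37 to 17.7 normalized counts in Veh (median 9.09), from 6.37 to 27.8 in Dox (median 12.8) and from 7.62 to 22.9 in Dox + ABT (median 11.9). Dlx5 ran from 19.7 to 74.7 in Veh (median 45.8), from 24.6 to 54.7 in Dox (median 43.1) and from 24.7 to 67.2 in Dox + ABT (median 39.1). The groups overlapped for both, and their differences between Dox and Veh were 0.37 (limma p = 0.194) and -0.16 (p = 0.507). Dlx1 was even over the groups, at 171 ± 33 (Veh), 174 ± 29.3 (Dox) and 176 ± 30.7 (Dox + ABT) normalized counts.

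Lhx6 showed a split like that of Slc32a1. Its level was 34.0 ± 11.1 normalized counts (SD, n = 4 Veh rats) and 48.3 ± 10.6 (SD, n = 5 Dox rats) in the first kind, and 41.3 ± 10.6 (SD, n = 6 Veh rats) and 26.3 ± 2.70 (SD, n = 3 Dox rats) in the second. The change was 0.53 in the first kind and -0.60 in the second (limma interaction -1.12, p = 0.00563, adjusted p = 0.119, beside 7.16% of all tested genes at p under 0.01). Over all rats its change in Dox was 0.04 (95% interval -0.43 to 0.51). Lhx6 and Pvalb were not correlated in the first kind (r -0.241, n = 16, permutation p = 0.414; rho -0.271, permutation p = 0.347) or the second (r -0.426, n = 9, exact permutation p = 0.288; rho -0.45, exact permutation p = 0.263), and neither were Gabra4 and Gabrd (r -0.168, n = 16, permutation p = 0.563, and r -0.242, n = 9, exact permutation p = 0.732; rho -0.126, permutation p = 0.665, and -0.0333, exact permutation p = 0.961).

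How large a change the data would still allow depends on the gene. Of the 31 genes not called between Dox and Veh, 30 had a 95% interval of the log2 fold change within ±1 and 18 within ±0.5. For Dox + ABT against Veh 23 of 26 lay within ±1 and 17 within ±0.5, and for Dox against Dox + ABT 29 of 31 and 19. The intervals are widest for Npy, reaching 1.62 in Dox + ABT against Veh and -1.72 in Dox against Dox + ABT.

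A further list held 66 other genes of GABA receptors, GABA metabolism and interneurons, of which 55 passed the filter. The shares called lay near those of all tested genes: 3.64% of the 55 against 2.87% between Dox and Veh, 9.09% against 7.84% between Dox + ABT and Veh, and 5.45% against 4.03% between Dox and Dox + ABT. Called between Dox and Veh were 2, both lower: Insyn2a, which encodes an inhibitory synapse protein, at 76.3 ± 12.3 normalized counts for Veh and 58.0 ± 10.1 for Dox (-0.39, limma p = 0.00963), and Slc38a5, an amino acid transporter that carries glutamine, with 27.6 ± 13.3 and 11.3 ± 5.6 (-1.19, p = 0.00078). Both were also called once the library kind was a covariate.

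Between Dox + ABT and Veh 5 of the 55 were called, 1 higher and 4 lower. Shisa7, a partner of GABA-A receptors, rose from 3609 ± 733 to 4524 ± 454 normalized counts (0.35, limma p = 0.00633). Lower were Clptm1, which holds GABA-A receptors in the endoplasmic reticulum (4971 ± 1052 in Veh and 3791 ± 468 in Dox + ABT; -0.37, p = 0.00207), the synapse protein Insyn1 (4232 ± 574 and 3503 ± 259; -0.26, p = 0.00208), the glutamine synthetase Glul (19259.8 ± 3045 and 15689.5 ± 2827; -0.30, p = 0.00965) and the glutamine transporter Slc38a3 (1362 ± 315 and 1028 ± 174; -0.38, p = 0.00566). With the library kind as a covariate 0 of the 55 were called and 5 had a p under 0.05.

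Between Dox and Dox + ABT 3 of the 55 were called, and 2 with the kind as a covariate, which were Insyn1 and Crhbp. Insyn1 was higher in Dox, with 4277 ± 380 normalized counts against 3503 ± 259 (0.29, limma p = 0.00161, adjusted p = 0.166), and Crhbp, the binding protein of corticotropin-releasing hormone found in somatostatin cells, was lower, with 53.4 ± 19.2 against 83.2 ± 19.8 (-0.67, p = 0.00171, adjusted p = 0.167). The medians of the 55 genes were 0.00, 0.01 and -0.04 on the log2 scale in the 3 comparisons, beside 0.00498, -0.000864 and -0.00139 over all tested genes.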

How the data were processed

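RNA of the dentate gyrus was measured in 26 rats, grouped by the treatment in the sample labels; replicate numbers name rats within a group. The authors sequenced poly(A) libraries on an Ion Proton, aligned the reads to rn6 with STAR 2.5.3a in Partek Flow and divided the estimated counts by Median Ratio factors. The deposited values are this normalized signal, in 24012 transcript rows, which were summed here to 17910 gene IDs. All columns were used. In single-row genes 76.4% to 82.6% of a library's low values came out as whole reads (within 0.05 of a read), in genes with several rows only 15.5% to 23.0%, so reads were not recovered and no count test was run. The steps between low values gave an estimated 10149100 to 24292500 reads per library, and genes with means near 5 rest on few reads.

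Groups were compared in limma 3.58.1 under R 4.3.3 by two-sided moderated tests (eBayes with trend) of log2(value + 1), with all 26 rats in 1 fit of the 15595 genes whose mean reached 5, called at p under 0.01 as in the study, with Benjamini-Hochberg adjusted p-values over all tested genes. The pseudocount of 1 shrinks fold changes of low genes. The fit was tested on simulated data. Kinds of library were split at the largest gap along the first principal component of deviations from group means (genes averaging 20 or more). Correlations used permutations within groups (100000 draws with seed 1 in the first kind, all 4320 in the second), and 5 of 6 planned pairs were run, since Cort was not analysed here. Every one of the 32 genes is named; lowest, median and highest values are given for those called in any comparison and for the 2 of each role with the smallest p between Dox and Veh, and other genes of the pathway get values where called, except 1 that is not reported here. The genes, lists and kinds were chosen with earlier results of these data known. Alternatives were other pseudocounts, filters, eBayes settings, library weights, samples in the fit and scalings (trimmed means of M values, TMM, and quantiles), a replicate block, the kind of library, transcript rows and leaving out each rat. The CA1 covariates, and the alternatives for the interactions and the correlations, were added after seeing the data. Promoters were read from RefSeq (GRCr8) by symbol, and no gene coordinates in rn6 or transcript lengths were used here. Figures were drawn in Python 3.11.15 with matplotlib 3.10.9.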

Additional observations from a re-analysis of the deposited data

Results flagged for a closer look

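In the Dox group, rat 5 had a Gabrb1 level of 2264 normalized counts, with the other 7 rats between 289 and 959, and its gap to the next rat was 0.661 of the group's range. In the Dox + ABT group, rat 4 stood apart for 3 genes: Gabbr1 at 26476 (others 18444 to 21143, gap 0.664 of the range), Pvalb at 610 (222 to 372, 0.613) and Cck at 2051 (686 to 1256, 0.583). Both rats have libraries of the second kind. Such a gap was looked for in 96 sets of values (32 genes in 3 groups) by Dixon's test at the 95% level, where chance flags about 1 in 20 sets, and 4 were found.

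For 3 genes the change in Dox differed between the kinds of library (limma interaction, second minus first kind): -0.96 for Slc32a1 (p = 0.000213), -1.12 for Lhx6 (p = 0.00563) and 0.66 for Gabra2 (p = 0.0073), on the log2 scale. Their adjusted p-values were 0.0796, 0.119 and 0.126. The second kind held 3 Dox rats.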

How the results depend on the processing

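All counts are of the 32 genes called at p under 0.01 by limma. Between Dox and Veh, where 1 was called (Penk), arrayWeights gave 6, quantile normalization 2, the replicate block 2 and the first kind of library alone 3, and the fits without 1 rat gave 1 to 2 (Gabbr1 joined Penk without Veh rat 10 or 11 or Dox rat 14). Between Dox + ABT and Veh, where 6 were called, the fit without a variance trend gave 3, the replicate block 3, the kind of library as a covariate 0, that kind together with the level of the CA1 markers 0 and the first kind alone 1, and the fits without 1 rat gave 0 to 6. Leaving out Veh rat 1, 2, 3, 4, 9 or 12 or Dox + ABT rat 2, 3, 5, 6 or 11 gave 2 or fewer. Between Dox and Dox + ABT, where 1 was called (Gabrb1), arrayWeights gave 4, the replicate block 2, the first kind alone 3 and both covariates 2, and the fits without 1 rat gave 0 to 1, with 1 to 3 genes at p under 0.05 in those at 0. A fit of the second kind alone could not be made for Dox + ABT, which has 1 rat in it. The block's calls were not all those of the fit without it: it called Vip and Penk between Dox and Veh, Gabra2 and Penk but not Gabrb1 between Dox and Dox + ABT (Gabrb1 0.86, p = 0.0744), and Gabrd, Gad2 and Penk but not Gabrb1, Gabbr1 or Gad1 between Dox + ABT and Veh. The first kind alone called none of the 6 genes called between Dox + ABT and Veh, and not Gabrb1 between Dox and Dox + ABT. The cause of these differences was not tested. In the other settings the counts were within 1.5 times of these.

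Penk stayed called between Dox and Veh in all 26 fits without 1 rat and in every other setting but the second kind alone. Over all settings, no gene was called in the direction opposite to that reported, and 0 to 12 of the 32 log2 fold changes changed sign. Deviations of rats with the same number had correlations of -0.22 to 0.44 (median -0.01, 16 pairs, 6 over 0.1). Those of rats with other numbers ran from -0.57 to 0.50 (median -0.0006, 208 pairs, 70 over 0.1). The number was therefore not taken as a pairing, though these correlations cannot exclude one. With the replicate block Penk (-0.90 in Dox, limma p = 2.18e-05) remained called. The count of 3 interactions was 2 to 3 and that of 2 correlated pairs stayed at 2 under their alternatives. Of all 15595 tested genes, 448, 1222 and 629 were called in the 3 comparisons, in the order above. In that order the calls were 3150, 5297 and 1612 with arrayWeights, 451, 1093 and 596 without a variance trend, 765, 1180 and 403 with the replicate block, 421, 214 and 743 with the kind, 443, 236 and 773 with the kind and the CA1 markers, and 742, 172 and 1281 in the first kind alone. The fits without 1 rat gave 266 to 707, 695 to 2130 and 419 to 787. Gabre, Gabrg3, Dlx2 and Tac1, with means over all rats of 10.4 to 16.8, rest on few reads.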
